A study of Homo sapiens with 28 samples.

Results

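The transcription factor NRF2, encoded by NFE2L2, and 9 of its textbook target genes were followed in SK-N-AS neuroblastoma cells after MYCN was switched on. The 10 genes were picked by name from the platform's gene symbols: HMOX1, NQO1, GCLC, GCLM, TXNRD1, SRXN1, ME1, PIR, FTL and NFE2L2, out of 19775 genes with a probe set of their own. They are covered by 23 of the 54675 probe sets, of which 22 name a single gene. The genes were picked with earlier results of this series known, above all the level of HMOX1 at time 192. The values of all 10 genes at that time, and of HMOX1 at every time, are therefore given as a description without a test.

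The SK-N-AS line, established from a human neuroblastoma, lacks MYCN amplification. The MYCN line carries a MYCN gene that doxycycline induces through the tet repressor, and was measured on 21 Affymetrix arrays, with 3 replicates at each of the time labels 0, 4, 8, 24, 48, 96 and 192, whose unit the labels do not state. The mock line carries the tet repressor vector pcDNA6TR, was also given doxycycline, and was measured on 1 array at each of the same 7 times. Both lines thus share the repressor, the drug and the culture medium (DMEM with fetal calf serum), no array followed undrugged cells over time, and the labels do not say whether a line is a single clone. Nor do they say that replicates came from separate cultures, so the spread behind each p-value is that of these samples and could be technical. Precision is limited by the number of arrays.

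NRF2 is normally held in the cytoplasm and degraded through KEAP1. When oxidants or electrophiles modify KEAP1, NRF2 escapes, enters the nucleus, pairs with a small MAF protein and binds antioxidant response elements. Its targets make glutathione, reduce thioredoxin, supply NADPH, detoxify quinones, degrade heme and store iron.

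MYCN, the induced gene, read 3065 to 3273 in the MYCN line at time 192, against 69.4 to 103 there at time 0, and 1.6 to 3.0 in the mock line at all 7 times. All values are deposited MAS5 intensities, scaled by array and without a unit. The 2 lines differed in more than MYCN. PHOX2A, a noradrenergic neuroblast factor, read 1.2 to 15.4 in the MYCN line, against 582 to 1133 in the mock line. PTPRC, a leukocyte marker, read 1.0 to 36.2 in the MYCN line, against 197.6 to 262 in the mock line, while the other macrophage markers with a probe set stayed at or under 27.2 in every array. Of the defining noradrenergic enzymes, TH and DBH stayed at or under 8.7 in every array of both lines. Summed over the 6 noradrenergic markers with a probe set, intensity was 506 to 600.0 at time 192 and 475 to 512 at time 0 in the MYCN line, against 1923 to 2373 in the mock line. Summed over the 8 mesenchymal markers, led by VIM, intensity was 9224 to 9913 at time 192 and 10907 to 12121 at time 0 in the MYCN line, against 8515 to 9760.0 in the mock line. Single markers, named after their values were seen, differed between the lines in either direction. FN1 had a median of 1260.2 in the MYCN line, against 249.9 in the mock line, and TWIST1 541, against 1277. By the spiked hybridisation control bioD the arrays also fell into 2 sets: replicates 1 and 2 of the MYCN line at 1156 to 1455, and replicate 3 together with the mock line at 1664 to 1954. Results that set the lines against each other carry these differences, whose part in them was not tested.

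The promoters of the members show where an antioxidant response element, the DNA word NRF2 binds, can be read. Windows of 250 bases before to 50 bases after each RefSeq start (GRCh38.p14) were searched on both strands for the core TGACNNNGC. Of the 9 members with a window, 4 held it: GCLM, TXNRD1, ME1 and PIR. Over all genes with a window, 16.1% of 27305 held it, and 13.3% of 35116 windows. Printed here are the bases before the start of the 3 members that rose at time 96 and hold the core there, and a short stretch of PIR, which fell; capitals mark the core, read 5′ to 3′ on the gene's strand.
GCLM, chr1:93909431-93909680, minus strand: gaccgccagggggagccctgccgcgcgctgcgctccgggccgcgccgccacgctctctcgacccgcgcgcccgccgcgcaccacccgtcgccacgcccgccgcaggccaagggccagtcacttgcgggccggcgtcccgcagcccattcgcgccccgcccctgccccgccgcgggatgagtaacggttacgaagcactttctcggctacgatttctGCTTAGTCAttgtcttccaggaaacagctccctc
TXNRD1, first start, chr12:104215529-104215778, plus strand: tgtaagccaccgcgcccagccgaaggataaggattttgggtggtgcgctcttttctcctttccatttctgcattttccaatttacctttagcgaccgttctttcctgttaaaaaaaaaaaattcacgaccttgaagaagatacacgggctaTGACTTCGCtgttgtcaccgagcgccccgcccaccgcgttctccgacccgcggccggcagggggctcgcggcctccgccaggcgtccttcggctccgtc
TXNRD1, second start, chr12:104286782-104287031, plus strand: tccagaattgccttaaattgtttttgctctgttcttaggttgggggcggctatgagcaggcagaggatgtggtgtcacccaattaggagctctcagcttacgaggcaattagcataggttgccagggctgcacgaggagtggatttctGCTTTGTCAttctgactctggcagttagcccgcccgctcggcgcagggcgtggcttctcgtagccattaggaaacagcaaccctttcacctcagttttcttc
ME1, chr6:83431052-83431301, minus strand: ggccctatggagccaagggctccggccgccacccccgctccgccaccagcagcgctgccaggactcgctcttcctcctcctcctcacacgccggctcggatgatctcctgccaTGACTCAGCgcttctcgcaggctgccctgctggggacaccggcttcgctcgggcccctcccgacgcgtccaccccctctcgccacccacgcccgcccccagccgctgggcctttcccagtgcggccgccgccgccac
PIR, chrX:15493289-15493317, minus strand: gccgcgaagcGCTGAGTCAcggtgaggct
In GCLM the core began 34 bases before the start, on the opposite strand, as TGACTAAGC. TXNRD1 held it 99 bases before its first start as TGACTTCGC, and 102 bases before its second start on the opposite strand as TGACAAAGC. A further TXNRD1 match, TGACGGAGC on the opposite strand, began 8 bases before the first start and ran across it, so it is not in capitals. ME1 held TGACTCAGC 137 bases before the start, and TGACGGTGC on the opposite strand from base 12 after it, outside the printed bases. In PIR the core lay after the start, from base 27 on the opposite strand, also as TGACTCAGC. The reading TGACTCAGC contains TGACTCA, the word of AP-1 factors, so in ME1 and PIR the 2 words overlap. NQO1, GCLC, SRXN1, FTL and NFE2L2 held no match in these windows, which says only that these letters are not there.

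HMOX1, heme oxygenase 1, splits heme into biliverdin, carbon monoxide and iron, and had the widest range of the 10 genes, as a ratio, over the MYCN line. The arrays read RNA of whole cultures, in which more RNA per cell and more cells with the RNA cannot be told apart. In replicates 1, 2 and 3 its intensity at time 0 was 77.4, 48.9 and 39.4. Time 4 gave 104, 57.4 and 40.6, and time 8 gave 63.8, 55.0 and 24.6. The 3 arrays of time 24 read 84.4, 89.8 and 41.0, and those of time 48 read 74.6, 75.9 and 39.7, so the groups up to time 48 overlapped. At time 96 the 3 arrays read 184, 222 and 70.8, so that replicates 1 and 2 lay above every earlier array and replicate 3 within the range of time 0. At time 192 they read 1436, 437 and 288, all above every other HMOX1 value of the series. The mean was 721 ± 624 at time 192 and 55.2 ± 19.8 at time 0 (SD, n = 3 each). The mock line stayed between 40.1 and 53.5 at all 7 times, with 46.1 at time 192 and 40.9 at time 0.

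**Figure D1:**
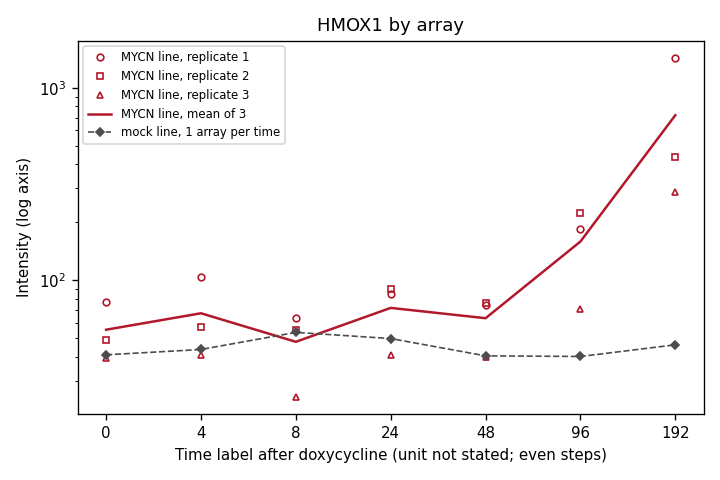
HMOX1 intensity (log axis) against the time label, in even steps, with the 3 replicates of the MYCN line as open symbols, their mean as a line, and the mock line (1 array per time) as filled diamonds. At time 192 the MYCN line reads 1436, 437 and 288, while the mock line stays between 40.1 and 53.5 throughout.

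Every replicate of the MYCN line had more HMOX1 at time 192 than at time 0, but by different factors: 18.6-fold in replicate 1, 8.94-fold in replicate 2 and 7.31-fold in replicate 3. The log2 change was 3.42 (SE 0.54). Without replicate 1 it was 3.02, and without replicate 3, which leaves a single set of arrays by the hybridisation control, 3.69. Replicate 3 was the lowest of the 3 at all 7 times. The replicates spread more in HMOX1 than in most genes: the SD of log2 intensity at time 192 was 1.20, and 162 of 11865 tested genes (1.37%) had one at least as large, against a median of 0.19 over all tested genes. At time 0 the SD of HMOX1 was 0.50, reached by 8.04% of genes. At times 4, 8, 24, 48 and 96 it was 0.68, 0.74, 0.63, 0.53 and 0.88. These were reached by 3.37%, 2.44%, 3.95%, 9.78% and 2.48% of genes, so a wide spread was not particular to time 192.

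GCLC and GCLM encode the catalytic and the modifier subunit of glutamate-cysteine ligase, the rate-limiting enzyme of glutathione synthesis. Both rose in the MYCN line at time 96. GCLM read 986, 1124 and 768 at time 96 against 744, 542 and 534 at time 0, with no overlap, a log2 change of 0.66 (SE 0.19, limma adjusted p = 0.0156). Its other 2 probe sets changed by 0.92 and 1.23 at that time. At time 192 GCLM read 1332, 1157 and 984. On this probe set each replicate was higher than at time 96, but on the other 2 replicate 2 was lower at time 192, with 484 against 635 on the one and 321 against 369.9 on the other. GCLC, on its brightest probe set, read 426, 368 and 391 at time 96 against 320, 282 and 306 at time 0, a log2 change of 0.39 (SE 0.10, limma adjusted p = 0.0112). Here too the arrays did not overlap. Its second probe set gave 0.28 (limma adjusted p = 0.133 among 24655 probe sets), so the GCLC call rests on 1 of 2 tested probe sets. At time 192 GCLC read 578, 463 and 421. In the mock line GCLC stayed between 215 and 254. GCLM there read 523, 611, 632, 471, 475, 418 and 281 from time 0 to time 192.

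TXNRD1, thioredoxin reductase 1, passes electrons from NADPH to thioredoxin, and SRXN1, sulfiredoxin, restores overoxidised peroxiredoxins. TXNRD1 passed the test upward at time 48, and already at time 24 with the bioD set as a block (log2 change 0.57, limma adjusted p = 0.00061). At time 48 its arrays read 3271, 3442 and 1969, against 2183, 1589 and 1445 at time 0, a log2 change of 0.71 (SE 0.20, limma adjusted p = 0.0222). The lowest array of time 48 lay under the highest of time 0, so the groups overlapped. At time 96 they no longer did, with 3073, 3024 and 2389 and a change of 0.72 (SE 0.20, limma adjusted p = 0.0142), and at time 192 the level was similar at 3380, 2961 and 2594. SRXN1 did not pass at any time up to 96 (log2 change at time 96 of 0.18, SE 0.16, limma adjusted p = 0.452). At time 192 it read 611, 392 and 331, against 343, 266 and 266 at time 0, with replicate 3 of time 192 under replicate 1 of time 0. Against the time 0 array of the same replicate number, SRXN1 was 1.78, 1.47 and 1.25-fold higher at time 192 in replicates 1, 2 and 3. The other single-gene TXNRD1 probe set stayed at or under 6.7 in every array and was not tested. The mock line read 1271 to 1608 for TXNRD1 and 241 to 345 for SRXN1.

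NQO1, a quinone reductase, and ME1, the cytosolic malic enzyme that makes NADPH, also rose at time 96. NQO1 read 2224, 2320.3 and 2343 at time 96 against 2089, 1919.7 and 2009 at time 0, and 2903, 2581 and 2779 at time 192. The change at time 96 was small and even, 0.20 on the log2 scale (SE 0.06, limma adjusted p = 0.0224), and a second of its 3 probe sets was also called in the fit of all probe sets (0.32, limma adjusted p = 0.0215). In the mock line NQO1 read 1443 at time 192 against 1783 at time 0. ME1 read 822, 841 and 861 at time 96 against 687, 573 and 443 at time 0, a log2 change of 0.59 (SE 0.17, limma adjusted p = 0.0187), and 1225, 890.3 and 881 at time 192. Both groups of later arrays lay above all time 0 arrays. Its second tested probe set changed by 0.57 at time 96 (limma adjusted p = 0.0271 among 24655 probe sets). Its mock levels lay between 357 and 474.

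PIR, pirin, an iron-binding nuclear protein, went the other way. It read 173, 226 and 301 at time 48 and 146, 192 and 268 at time 96, against 399, 442 and 318 at time 0. The changes were -0.75 (SE 0.19, limma adjusted p = 0.0100) and -0.97 (SE 0.19, limma adjusted p = 0.00092), with no overlap at either time. At time 192 its arrays read 222, 209.6 and 215, below all of time 0. PIR was the only one of the 9 tested genes that was called lower at these times. In the mock line it read 726, 834, 778, 864, 859, 833 and 1055 from time 0 to time 192, above every array of the MYCN line.

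FTL, the light chain of the iron store ferritin, and NFE2L2 were not called at any time up to 96 on their brightest probe sets. FTL read 6166, 5005 and 5906 at time 192 against 4348, 4173 and 4758 at time 0. Its log2 change was 0.22 at time 48 (SE 0.08, limma adjusted p = 0.0591) and 0.16 at time 96. The second FTL probe set was called in the fit of all probe sets at both times, with changes of 0.33 (limma adjusted p = 0.00629) and 0.26 (limma adjusted p = 0.0152), so the 2 FTL probe sets fall on different sides of the threshold. Both carry a suffix that marks probes shared with similar sequences. NFE2L2 read 1493, 1468 and 1389.5 at time 192 against 1601, 1348 and 1433 at time 0. Its log2 change at time 96 was -0.02 (95% interval -0.19 to 0.14), and the mock line read 1506 to 1643.

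**Figure D2:**
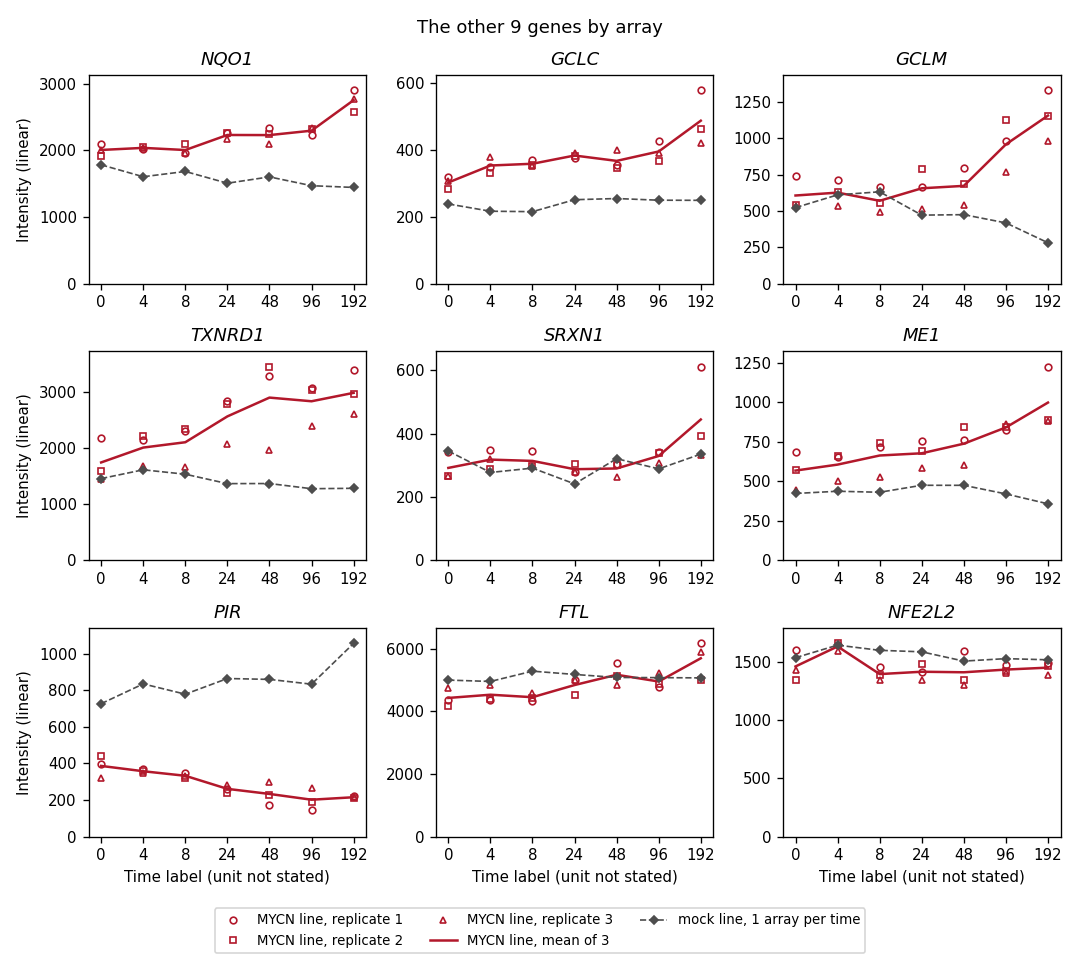
Intensity (linear axes from 0) of the other 9 genes against the time label, with the 3 replicates of the MYCN line as open symbols, their mean as a line, and the mock line (1 array per time) as filled diamonds. PIR reads 146 to 268 at time 96 and 318 to 442 at time 0 in the MYCN line, and 726 to 1055 in the mock line.

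Of the 9 genes tested, 0 were called at times 4, 8 and 24, 2 at time 48 (1 higher, 1 lower) and 6 at time 96 (5 higher, 1 lower). Over all 11865 tested genes the share called at these times was 0.00843%, 0.767%, 7.18%, 14.7% and 23.4%, with 7.04% higher and 7.67% lower at time 48, and 10.3% higher and 13.2% lower at time 96. At unadjusted p under 0.05 the 9 genes gave counts of 2, 1 and 4 at times 4, 8 and 24, beside 6.56%, 10.0% and 22.1% of all tested genes. With the 2 sets of arrays by bioD as a block in the fit, 3 genes were called at time 24 (GCLC and TXNRD1 higher, PIR lower) and 4 at time 48 (TXNRD1, ME1 and FTL higher, PIR lower). The shares of all tested genes above are from the fit without this block, so nothing is read from these 2 counts. All 10 genes passed the filter on low values. The 9 genes had a median log2 change of 0.13 at time 24, 0.15 at time 48 and 0.20 at time 96, beside -0.03 over all tested genes at each of these times. At time 192 the median was 0.57, beside -0.03 over all tested genes. There 7 of the 10 genes had all 3 arrays above those of time 0, beside 16.5% of tested genes, and PIR had all 3 below, beside 19.6%; these genes were picked from that contrast, and nothing is read from the counts. All the times share the time 0 arrays.

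**Figure D3:**
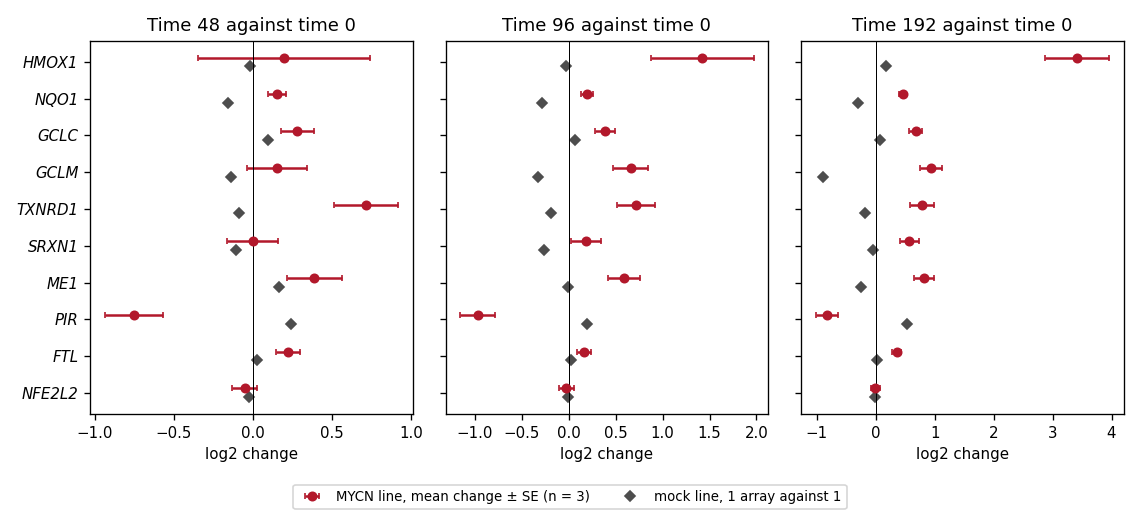
The log2 change from time 0 at times 48, 96 and 192 (x axes of different length) for the 10 genes, as the mean of the MYCN line with its SE from the limma fit (filled circles, n = 3) and as the single difference in the mock line (diamonds). PIR lies at -0.97 and GCLM at 0.66 at time 96 in the MYCN line, and HMOX1 at 3.42 at time 192.

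Several of these calls depended on single arrays, the scaling or the probe sets used. With the mean of all probe sets of a gene, which takes in dim ones, GCLC (log2 change 0.42, limma adjusted p = 0.366), TXNRD1 (0.76, limma adjusted p = 0.378) and ME1 (0.51, limma adjusted p = 0.302) were not called at time 96. TXNRD1 was not called at time 48 either (0.30, limma adjusted p = 0.805). With the arrays of the 2 times alone, NQO1 and GCLC lost their calls at time 96 and both PIR and TXNRD1 theirs at time 48. With array medians set equal instead of the deposited scaling, only PIR stayed called at time 96, and the changes of the 5 risers kept their sign. Without the arrays of replicate 2 at every time, 0 of the 6 calls stood. Without those of replicate 1, NQO1, GCLC and TXNRD1 lost theirs, and without those of replicate 3, NQO1 did. When each of the 6 arrays of times 96 and 0 was left out alone, PIR stayed called in 6 of 6 cases. GCLC and ME1 each lost the call in 2 cases, and NQO1, GCLM and TXNRD1 in 4, through replicate 2 or 3 of time 0 or 1 of the replicates of time 96. At time 48, PIR lost its call without replicate 1 or 2, or without the time 48 array of replicate 1. TXNRD1 at time 48 lost it in the same cases, and without replicate 2 or 3 of time 0 or replicate 2 of time 48, or with equal array medians.

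The mock line has 1 array a time, so a trend over the time steps was tested in it. Of the 9 genes only GCLM had a slope past the threshold, and it was negative, at -0.15 log2 units per step (SE 0.04, limma adjusted p = 0.0451). Over all tested genes 3.13% were called, 1.52% lower; 51.5% of the called genes had a positive slope, and 27.4% with equal array medians. The GCLM call was lost in 12 of 15 alternatives (limma adjusted p from 0.0152 to 0.167), among them without the mock array of time 4, 8, 24, 48, 96 or 192. At unadjusted p under 0.05, NQO1 and TXNRD1 also had a lower and PIR a higher slope in the mock line, beside 23.2% of all tested genes. The median slope of the 10 genes was -0.01, beside 0.01 over all tested genes.

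Whether the course over time differed between the lines was tested as the difference of slopes over times 0 to 96. It was called for 3 of the 9 genes, 2 higher and 1 lower in the MYCN line, beside 12.3% of all tested genes (5.54% higher, 6.73% lower). TXNRD1 had a slope of 0.15 per step in the MYCN line, against -0.05 in the mock line, a difference of 0.21 (SE 0.06, limma adjusted p = 0.0233). NQO1 had 0.04 in the MYCN line, against -0.04 in the mock line, a difference of 0.088 (SE 0.02, limma adjusted p = 0.00421). PIR had -0.20 in the MYCN line, against 0.04 in the mock line, a difference of -0.24 (SE 0.06, limma adjusted p = 0.00585). GCLM had 0.11 in the MYCN line, against -0.09 in the mock line, and its difference of 0.20 (SE 0.07) missed the threshold (limma adjusted p = 0.0507). The other 5 tested genes had differences from -0.01 (NFE2L2) to 0.10 (ME1). HMOX1 had 0.22 in the MYCN line, against -0.02 in the mock line. All 3 calls were lost without the mock array of time 0, those of NQO1 and TXNRD1 also without that of time 96, and that of TXNRD1 without that of time 4 or without replicate 2. With equal array medians only PIR stayed called, and TXNRD1 was also lost with the mean of all probe sets. Within replicate 3 and the mock line, the set of arrays with the higher bioD signal, the difference of PIR was -0.10 and not called.

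**Figure D4:**
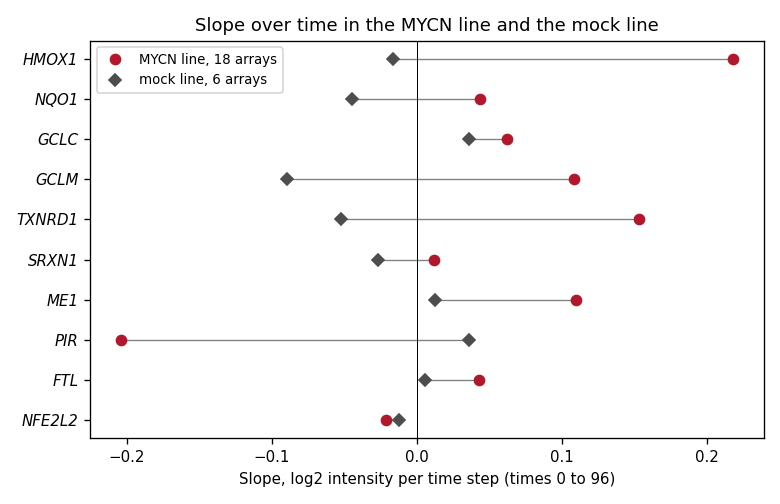
Slope of log2 intensity per time step over times 0 to 96 for the 10 genes, in the MYCN line (circles, 18 arrays) and in the mock line (diamonds, 6 arrays), joined by a grey line. TXNRD1 stands at 0.15 in the MYCN line, against -0.05 in the mock line, PIR at -0.20 and 0.04.

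At times 0, 4 and 8 the lines differed in several of the genes; MYCN itself already read 1549 to 4202 at times 4 and 8. The MYCN line was higher than the mock line in GCLC by 0.59 (SE 0.08), in ME1 by 0.49 (SE 0.13) and in NQO1 by 0.26 (SE 0.05) on the log2 scale. It was lower in PIR (-1.12, SE 0.09) and in FTL (-0.18, SE 0.05). These 5 of 9 passed the test (limma adjusted p from 3.11e-07 to 0.0101), but so did 42.8% of all tested genes (21.6% higher, 21.2% lower), so a high share of calls was the rule in this comparison. TXNRD1 (0.33, SE 0.13, limma adjusted p = 0.0524), GCLM (0.02), SRXN1 (0.02) and NFE2L2 (-0.09) were not called, and HMOX1 averaged 0.20 more in the MYCN line. With time 0 alone only PIR stayed called (-0.92), and the differences were 0.34 for GCLC, 0.40 for ME1, 0.17 for NQO1 and -0.18 for FTL. With the mean of all probe sets, GCLC (a difference of 0.36, limma adjusted p = 0.336) and ME1 (0.18, limma adjusted p = 0.608) also lost their calls. With equal array medians the median of all tested genes shifted to 0.23, against -0.02 as deposited, 78.0% of called genes were higher against 50.5%, and FTL turned to 0.059 (limma adjusted p = 0.558). Within replicate 3 and the mock line, NQO1, GCLC and PIR stayed called; ME1 and FTL did not, nor did either without the mock array of time 8. FTL also lost its call without replicate 1.

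At time 192 replicate 1 was the highest of the 3 arrays for all 10 genes, beside 31.9% of all tested genes. The genes were picked with values of time 192 known, so nothing is read from this count. The replicate 1 array of time 96 was the highest of its time for 4 of the 10 genes (24.97% of all tested genes), and that of time 0 for 8 of 10 (26.2%). The excess of replicate 1 over the mean of replicates 2 and 3 at time 192 had a median of 0.30 log2 units over the 10 genes, and was 2.02 for HMOX1. In some of the other stress lists replicate 1 was also the highest for most genes. In the metal response list, of metallothioneins and the zinc exporter SLC30A1, replicate 1 was the highest for 8 of 8 genes, with a median excess of 1.49. MT1F read 1395, 264 and 262 in replicates 1, 2 and 3. The probe sets of MT1E, MT1F, MT1G, MT1H, MT1X and MT2A carry the suffix for shared probes, so these genes may share signal. Replicate 1 was the highest for 6 of 6 hypoxia genes (median excess 0.54) and 8 of 9 ATF4 amino acid stress genes (median excess 0.54). It was so for 0 of 5 heat shock genes (median excess -0.01) and 2 of 8 NADPH genes (-0.06). The median over all tested genes was -0.01. In lists closer to the members, replicate 1 was the highest for 6 of 12 other NRF2 targets, 9 of 17 glutathione genes and 6 of 11 NRF2 regulators and partners. The same held for 3 of 9 thioredoxins and peroxiredoxins, 4 of 13 heme and iron genes and 1 of 3 superoxide and peroxide genes. Over the 3 arrays of time 192 MYCN read 3065 to 3273, the 3′ over 5′ ratio of GAPDH, a sign of RNA integrity, was 0.993, 1.07 and 1.19 in replicates 1, 2 and 3, and that of ACTB 1.11, 1.13 and 1.24. Replicate 1 had the lowest GAPDH ratio of all 28 arrays. The part of the other stress lists and of these ratios in the HMOX1 spread was not tested.

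**Figure D5:**
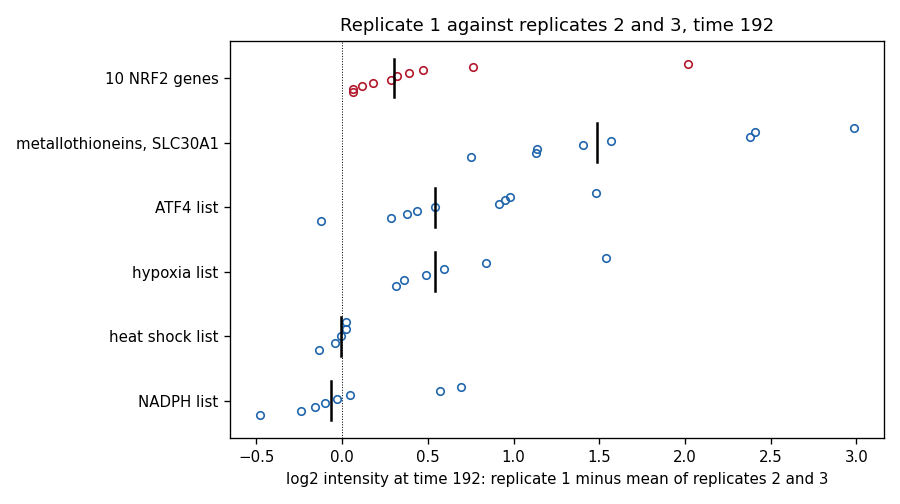
Log2 intensity at time 192 in replicate 1 minus the mean of replicates 2 and 3, 1 point per gene, for the 10 NRF2 genes and 5 other lists; black bars mark medians. The 10 NRF2 genes all lie above 0, with HMOX1 at 2.02, and the metal response genes have a median of 1.49.

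The genes whose log2 intensity was most like that of HMOX1 over the 28 arrays were, by Pearson's r and among the tested genes that are no members, NFXL1 (0.91), SLC7A11 (0.90), SQSTM1 (0.88), ESYT2 (0.85) and PITRM1 (0.85). These arrays share time points, lines and scaling, and the value at time 192 weighs heavily, so r is given as a description only. SLC7A11, the cystine importer that feeds glutathione synthesis, read 684, 253 and 130.0 at time 192 against 77.6, 51.7 and 56.6 at time 0. SQSTM1, the autophagy receptor that binds KEAP1, read 2318, 1690 and 1556 at time 192 against 1108, 952 and 1049.5 at time 0. All 5 genes were highest in replicate 1 and lowest in replicate 3 at time 192, as HMOX1 was, an order that their choice by r favours. Of the members GCLM was most like HMOX1 (0.85), and NFE2L2 had an r of -0.0032.

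Of 11 tested regulators and partners of NRF2, 1 rose and 1 fell at time 96, beside 10.3% higher and 13.2% lower of all tested genes. KEAP1, the adaptor that targets NRF2 for degradation, fell by 0.51 on the log2 scale at time 48 (limma adjusted p = 0.0057) and fell by 0.34 at time 96 (limma adjusted p = 0.0369), and read 451, 431 and 399.5 at time 192 against 416, 394 and 538 at time 0. It also read lower with time in the mock line, with 317, 285, 258 and 253 at times 0, 48, 96 and 192. Its mock slope was -0.05 per step and was not called (limma adjusted p = 0.162). MAFF, a small MAF protein, rose by 1.09 at time 96 (limma adjusted p = 0.00528). BACH1, which competes with NRF2 for its sites, and NFE2L1, its relative, had changes of -0.22 each at time 96 and were not called. The list had a median change of 0.03 at time 96.

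Antioxidant genes beyond the 10 were called in both directions at time 96, beside 10.3% higher and 13.2% lower of all tested genes. In glutathione synthesis and use, 0 of 17 genes rose and 5 fell at time 96, among them the peroxidases GPX7 (-0.72), GPX1 (-0.48) and GPX4 (-0.42) and the transferase GSTA4 (-1.10). Of 9 thioredoxins and peroxiredoxins 2 rose and 1 fell. PRDX4, the peroxiredoxin of the endoplasmic reticulum, read 2630.0, 2386 and 2515 at time 96 against 1784, 1712 and 1751 at time 0 (log2 change 0.52, limma adjusted p = 3.17e-06), and it had already risen at time 24. Thioredoxin, TXN, rose by 0.35, and the mitochondrial TXN2 fell by 0.46. In NADPH production 1 of 8 genes rose and 1 fell: the mitochondrial enzymes ME2 (0.90) and IDH2 (-1.74). CAT, catalase, was the 1 gene that fell of 3 that remove superoxide or peroxide (-0.32, limma adjusted p = 0.0498).

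Of 13 genes of heme and iron handling 2 rose and 1 fell at time 96, beside 10.3% and 13.2% of all tested genes. ALAS1, the first enzyme of heme synthesis, rose by 0.37, and TFRC, the transferrin receptor, by 0.35. BLVRB, a biliverdin and flavin reductase, fell by 1.01. Among 12 other NRF2 targets, 0 rose and 2 fell: the carbonyl reductase CBR3 (-1.04, limma adjusted p = 1.62e-05) and the aldo-keto reductase AKR1C3 (limma adjusted p = 0.0071). AKR1C3 read 12.3, 7.5 and 35.2 at time 96, so 2 of its 3 arrays lay under 12.8, the level of the filter on dim genes, and the size of its fall is uncertain. At time 192 it read 123, 41.1 and 25.5 against 52.5, 93.4 and 46.7 at time 0. TRIM16, a further target of this list, read 268, 156 and 130.5 at time 192 against 75.7, 90.2 and 74.1 at time 0, with no overlap. Its mock values lay between 135.9 and 160.2. AKR1C1, of the same list, read 194, 53.9 and 20 at time 192 against 25.3, 26.4 and 35.5 at time 0, so that replicate 3 was lower. Its mock values lay between 195.3 and 373.6, above every array of the MYCN line.

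Genes of other stress responses were counted in the same way at time 96, beside 10.3% of all tested genes called higher. Of 8 metal response genes 0 were called (8 of 8 had a change above 0, median 0.41), while 5 of 8 were called with a falling slope in the mock line (1.52% of all tested genes), and 6 of 8 with a higher slope in the MYCN line than in the mock line (5.54%). Most of these genes were read on probe sets that may share signal, so the counts are not of separate readings. MT2A, a metallothionein, read 4747, 2160 and 2183 at time 192 against 1525, 1476 and 1554 at time 0 in the MYCN line. Its mock values were 485 at time 192 against 1672 at time 0. Of 5 heat shock genes 2 rose, the chaperone HSPH1 (0.60) and the cochaperone BAG3 (0.42). Of 9 ATF4 amino acid stress genes 2 rose, TRIB3 (0.83) and PSAT1 (0.64), and ATF4 itself changed by 0.17 and was not called. Of 6 hypoxia genes 4 rose, VEGFA (0.57), PDK1 (0.56), NDRG1 (1.44) and SLC2A1 (0.74). For 0 of these 6 genes was the slope difference between the lines called (adjusted by limma; NDRG1 had an unadjusted p under 0.05), and VEGFA had a slope of 0.14 in the mock line over all its times (limma adjusted p = 0.0557).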

How the data were processed

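RNA of 28 samples was measured on single-colour Affymetrix arrays. The authors deposited linear intensity values, 1 for each probe set in each array. MAS5 and GCOS are named in the submitters' processing notes, without versions. Checked on the table, every array had a mean intensity of 100.01 once 2% of values were trimmed from both ends, and no further normalization was applied in the main fits.

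Values of 0 or below, 91 in all, were replaced with 0.1, and log2 was taken. Each of 19775 genes was represented by its brightest single-gene probe set by mean log2, and the 11865 at or above the 40th percentile (log2 of 3.68) were tested, including the 10 members. limma 3.58.1 in R 4.3.3, with lmFit and a trended eBayes, gave two-sided p-values, adjusted by Benjamini-Hochberg over all tested genes and called under 0.05. Times were compared with time 0 in the 21 arrays of the MYCN line, the mock trend used 7 arrays, the slope difference 24 arrays of times 0 to 96, and the early line difference 12 arrays of times 0, 4 and 8. The scripts were tested on simulated data.

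The members and lists were chosen with earlier results of these data known. Named besides the members were, per list, up to 4 genes with the smallest p at times 24 to 96 and up to 2 with the largest change at time 192, the 5 genes most like HMOX1 by r, and MYCN. Deviations from group means were correlated between a time and time 0 for each replicate number. At times 4, 8 and 192 r was 0.129 to 0.367. At times 24, 48 and 96 it was 0.156, 0.320 and 0.216 in replicate 1, and 0.329, 0.280 and 0.122 in replicate 3. In replicate 2 it was -0.0608, 0.055 and -0.0248 at these times. Replicate 3 of time 96 correlated best with number 2 of time 0. The numbers were therefore taken to pair arrays in every replicate only at times 4, 8 and 192, and the main fits used no block. No 2 arrays were identical. Promoter bases are from RefSeq (GRCh38.p14). Alternatives were other scalings, filters, floors, probe set rules, blocks and left-out arrays.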

Additional observations from a re-analysis of the deposited data

Results flagged for a closer look

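The difference in slope over times 0 to 96 between the MYCN line and the mock line passed the test for 3 members, beside 12.3% of all tested genes. All 3 calls were lost without the mock array of time 0. It was 0.21 log2 units per time step for TXNRD1 (limma adjusted p = 0.0233), 0.088 for NQO1 (limma adjusted p = 0.00421) and -0.24 for PIR (limma adjusted p = 0.00585). TXNRD1 and NQO1 had a positive slope in the MYCN line and a negative one in the mock line, and PIR the reverse. No group has the 4 or more arrays that a search for outlying samples needs.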

How the results depend on the processing

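Each alternative changed 1 choice; leaving out single arrays, and the fit of all probe sets, were chosen after seeing the data. Of 403 alternative values of the 17 called member values, 313 kept call and sign, 89 lost the call and 1 reversed: the FTL line difference at times 0, 4 and 8, with equal array medians (0.059). Counts of called members at times 4 and 8 stayed at 0 throughout. At time 24 (0 as reported) the count was 1 with the arrays of the 2 times alone, with quantile normalization or with values under 10 set to 10, 2 within replicates 1 and 2, and 3 with the hybridisation set as a block or with a replicate block. At time 48 (2) it was 0 with the arrays of the 2 times alone, 1 with equal array medians or without the _s_at and _x_at probe sets, 4 with the hybridisation set as a block and 6 with a replicate block. At time 96 (6) it was 1 with equal array medians, and 3 with the mean of all probe sets or without the _s_at and _x_at probe sets. The share of all tested genes called with a block is not given, so nothing is read from the counts under a block. The replicate block ended no call at times 48 and 96, the only times with calls to lose. At times 24, 48 and 96 replicate 2 did not correlate best with its own number, nor did replicate 3 at time 96. The mock trend count (1) was 0 with equal array medians, the 20th percentile filter, no filter, the mean of all probe sets, values under 10 set to 10, or without time 192. The early line count (5) was 1 with time 0 alone, 2 without the _s_at and _x_at probe sets, and 3 with the hybridisation set as a block, within replicate 3 and the mock line, or with the mean of all probe sets. The slope count (3) was 1 with equal array medians or without the _s_at and _x_at probe sets, and 5 with the hybridisation set as a block or quantile normalization. The slope count with time 192 is not given, as the genes were picked with that time known. The median change of the 10 members at time 192 (0.62) was 0.78 without the _s_at and _x_at probe sets.

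Leaving out 1 replicate number or 1 array gave 0 to 2 calls at time 24, 0 to 4 at time 48, 0 to 6 at time 96, 0 to 2 for the mock trend, 3 to 6 for the early line difference, 0 to 4 for the slope difference, and a median of 0.48 to 0.77 at time 192. The causes were not tested. Over the scaling, filter, floor and probe set settings, the count of all called genes ran from 10 to 107 at time 8 (91 as reported, 76.9% of them higher, and 100% with equal array medians), 294 to 952 at time 24 (852), 821 to 1810 at time 48 (1745), 1567 to 2867 at time 96 (2779), 112 to 380 for the mock trend (371), and 755 to 1516 for the slope difference (1456). Of 1166 alternative values of the 55 uncalled member values, 50 were called and 92 had the other sign without a call. The mock line's single arrays, dim probe sets and the replicate spread of HMOX1 limit precision.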
